A study of Saccharomyces cerevisiae with 112 samples.

Results

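The small subunit of the yeast cytosolic ribosome is built from ribosomal RNA and the proteins encoded by the RPS genes, RPS0A to RPS31. All 56 of these genes, taken by their names, were found among the 5560 yeast windows of the tables. They encode 32 proteins, of which 24 have an A and a B gene copy and 8 a single gene, RPS2, RPS3, RPS12, RPS20 and RPS31 among them. The libraries are SLAM-seq libraries of budding yeast (Saccharomyces cerevisiae), a method in which RNA made while cells take up 4-thiouracil (4TU) is read with T-to-C conversions after alkylation, and the series asks how newly made mRNAs are kept and translated when glucose is removed. Of the 112 samples 40 had files, and the 72 without are not analysed here. A chase set of strain KWY165, named decay in the labels, held 2 courses with and 2 courses without glucose, each with 1 library at 0, 5, 10, 15, 20, 30 and 45 min. A polysome set of strain KWY11376 held total RNA and the polysome fraction, with 2 libraries of each from cells given glucose and 4TU for 30 min, and 2 of each from cells at 30 min without glucose whose titles call them post-labelled with 4TU. The titles do not say whether labelling or withdrawal came first. A background set of KWY165, with no 4TU, held 1 library each of total RNA and polysomes with glucose and after 30 min without it, and has no replicate. The genotype of either strain is not stated, and nothing shows that replicates came from separate cultures, so that p-values may measure technical spread alone.

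Ribosomal protein genes are among the most strongly transcribed genes of dividing yeast, and their shared activators, Rap1, Ifh1 and Fhl1, respond to nutrients through the TOR and protein kinase A pathways. When a nutrient is withdrawn, their mRNAs are known to fall together with those of the factors that assemble ribosomes. Most small subunit proteins are made from duplicated genes with near-identical coding sequence, whose introns and 3' ends differ, and several of the proteins are known to limit the splicing or the stability of their own mRNA.

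Values are reads in one window at the 3' end of each gene, whose median length was 612 bases, and they are given as reads per 1000000 yeast reads of the library (RPM). Reads numbered 2710630 to 10591665 per chase library, 14965187 to 31069123 per library of the polysome set and 15482446 to 29223067 per library without 4TU, and every member passed the filter on low counts in every test. Multimapped reads made up at most 1.02% of any member's reads (median 0.162%), so that few reads could be split between copies. The windows of 30 members overlapped a gene on the opposite strand. Those of RPS14B and RPS22A overlapped each other by 476 bases, and that of RPS26A lay on the same strand as YGL188C-A, whose window held 50.1% of the reads of the pair, so RPS26A and YGL188C-A are uncertain. RNA is measured relative to the other mRNAs of a library, and fewer cells cannot be told apart from less mRNA per cell.

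At the start of the chase the 56 mRNAs spanned a 23.1-fold range in glucose when reads were set per kilobase of window, around a median of 2583 RPM per kb. The highest were RPS12, a protein of the beak of the subunit, with 8912 and 10707 RPM per kb, RPS31, which is made as a fusion with ubiquitin, with 8917 and 10104, and RPS9B, a protein of the mRNA entry channel, with 6813 and 7339.6. The lowest were RPS22B with 422 and 429, RPS14B with 515 and 476 and RPS28B with 734 and 720.3 RPM per kb. RPS12 and RPS31 overlapped between libraries and cannot be ordered, whereas RPS9B lay below both and the 3 lowest did not overlap each other. This order and the fold range depend on window length. In plain RPM RPS31 was highest in both libraries, at 5404 and 6123. Besides RPS22B and RPS14B, the members with fewer reads than RPS28B in both were RPS7B, RPS8A, RPS9A, RPS11B, RPS17B, RPS18B, RPS20, RPS24B, RPS25B and RPS29B. The RPS28B window was the longest, so its place among the lowest comes from the division by window length. In total RNA of the polysome set in glucose the range was 30.7-fold, again with RPS12 highest at 6987 and 7317 RPM per kb, and RPS7B lowest at 287 and 179.

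Without glucose the RPS mRNAs left the mRNA pool over the chase, and with glucose they took up more of it. In the courses with glucose their summed share of reads went from 10.5% and 10.8% at 0 min to 15.4% and 15.2% at 45 min, and without glucose from 10.7% and 11.1% to 3.07% and 3.35%. At 5 min without against with glucose, 20 of 56 members were lower and 36 were not called (edgeR's quasi-likelihood test, Benjamini-Hochberg adjusted p at most 0.05 over all genes tested, the rule behind each later count of members or genes in replicated libraries), where 5.45% of all genes were called lower. That count was 9 to 12 without any 1 of the 4 libraries, and 1 when spike-in reads set the scale. By 30 min 55 members were lower, against 34.7% of all genes, and by 45 min 55, against 36.9%. The median log2 change of the members went from -0.37 at 5 min through -0.95 at 15 min and -2.08 at 30 min to -2.86 at 45 min, and that of all genes at 30 min was 0.06. At 0 min 0 members were called by edgeR, where 0.398% of all genes were called lower and 0.109% higher, and 1 member, RPS28B, was lower with DESeq2 and at an unadjusted p of 0.05 or less.

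The members did not fall by one amount. At 30 min their log2 changes had an SD of 0.64 over genes, against a median SE of 0.15 and an SD of 1.46 over all genes tested. The difference at 30 min held movement in both conditions. Within the courses without glucose, 54 of 56 members were lower at 30 min than at 0 min, with a median of -1.52 and 35.0% of all genes lower. Within the courses with glucose 44 were higher at 30 min than at 0 min, with a median of 0.65 and 3.57% of all genes higher. That second count rested on few libraries, since it was 16 without the 0 min library of course 1, 24 without that of course 2 and 22 without the 30 min library of course 2, and it was 0 with spike-in reads as the scale, which moved the median of all genes by -0.23.

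**Figure D1:**
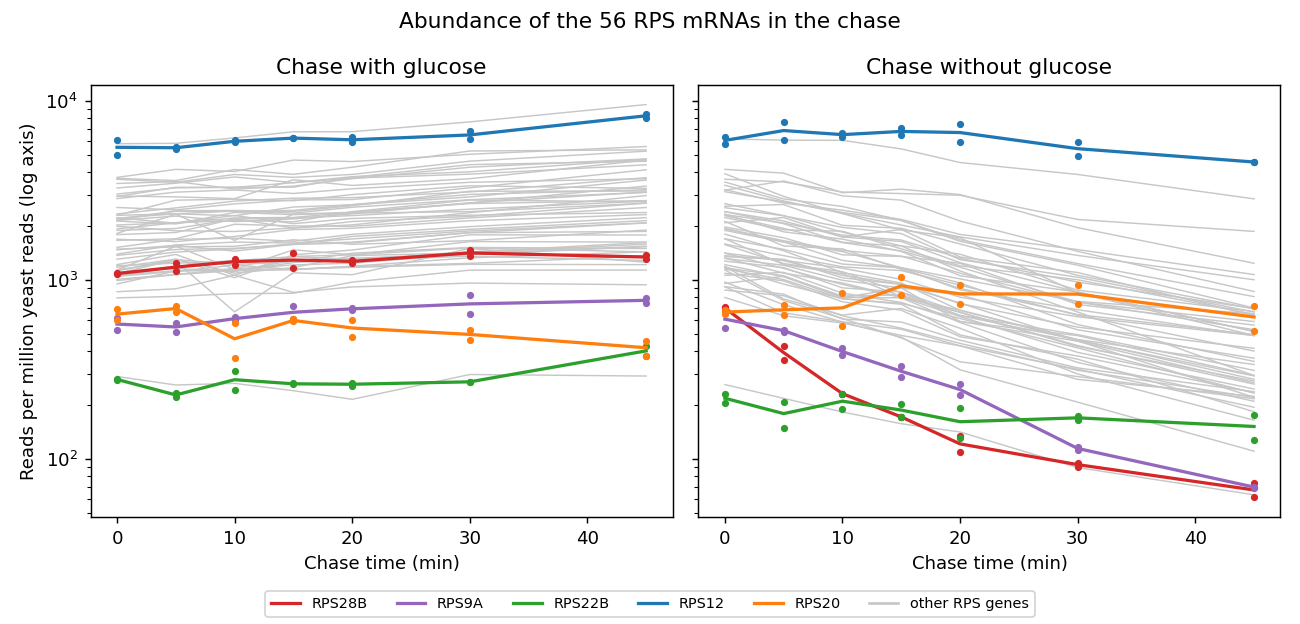
Reads per 1000000 yeast reads (log axis) of the 56 RPS mRNAs over the chase, with glucose on the left and without on the right. Lines are means of 2 courses, and points show both courses for 5 named genes. RPS28B (YLR264W) ends at 73.4 and 61.2 RPM without glucose, among the lowest members, while RPS20 stays near its start. RPS12 ends below its start, at 4533 and 4577 RPM, and is the highest member there.

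RPS28B fell furthest. RPS28 proteins sit near the mRNA exit of the subunit, and the long 3' UTR of RPS28B mRNA is known to bind the Rps28 protein and the decapping factor Edc3, which together bring about its decay. The RPS28B window (YLR264W, chrXII:673085-674577, plus strand, in a build not given in the sources used here) was the longest of the members at 1493 bases. Without glucose, RPS28B had 707, 429.8, 232, 173, 134, 90.6 and 73.4 RPM at the 7 times of the first course, and 689.7, 356, 232, 171, 109, 95.7 and 61.2 RPM in the second. With glucose it had 1096 and 1075 RPM at 0 min and 1359 and 1474 RPM at 30 min. The courses without glucose lay below those with it at every time, 0 min included, and most of the fall came within 15 min. At 30 min the log2 difference was -4.22 (SE 0.17), or 18.6-fold lower, with an edgeR adjusted p of 1.51e-16, and it ranked 1 of 5525 genes from the lowest. At 0 min the difference was -0.61 (SE 0.15) with an edgeR adjusted p of 0.0601, and it passed the threshold with DESeq2, with library totals as the scale, and when the compared libraries were fitted alone. The other copy, RPS28A (YOR167C, chrXV:648439-649054, minus strand), had 3294 and 3726 RPM with and 967 and 1105 RPM without glucose at 30 min, which did not overlap, and its log2 difference of -2.05 (SE 0.15) lay near the members' median.

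RPS9A and RPS9B followed RPS28B. RPS9 lines the mRNA entry channel, and both of its genes contain an intron. RPS9A (YPL081W) had 826 and 645 RPM with and 112 and 117 RPM without glucose at 30 min, a log2 difference of -2.97 (SE 0.15). RPS9B (YBR189W), a far more abundant mRNA, had 5877 and 4618 RPM with and 817 and 879 RPM without glucose, a log2 difference of -2.92 (SE 0.16). Both copies thus fell by amounts that lay within 1 SE of each other, from very different levels. The edgeR adjusted p was 1.21e-14 for RPS9A and 7.07e-14 for RPS9B.

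RPS20, RPS12, RPS22B and RPS31 kept more of their place in the pool. RPS20 encodes a protein of the head of the subunit and was the only member not called at 30 and 45 min (YHL015W, chrVIII:75528-76255, plus strand). It had 681, 729, 841, 1036, 940.4, 731 and 719.9 RPM in the first course without glucose, and 643, 635, 556, 819.8, 733, 937 and 522 RPM in the second. With glucose it had 691, 666, 367, 602, 600.2, 465 and 379 RPM in the first course and 599, 719.8, 573, 587, 479, 528 and 459 RPM in the second. The 30 min libraries without glucose were higher than those with it, with a log2 difference of 0.46 (SE 0.23) and an edgeR adjusted p of 0.0731. With library totals as the scale the difference was 0.75 and passed the threshold, and it was 0.67 and passed without the first library at 30 min without glucose. The 10 min library of the first course with glucose stood apart for several members, among them RPS20 and RPS27B, which had 1027 against 2302 RPM in the other course. Reads per spike-in read were there 28.1% of 0 min for RPS19A and 50.7% for RPS19B. In the other course they were 73.7% and 98.8%. The median member had 87.3% and 96.4% in the 2 courses.

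RPS12 (YOR369C, chrXV:1027884-1028444, minus strand) had 6124 and 6779 RPM with and 4948 and 5868 RPM without glucose at 30 min, a log2 difference of -0.55 (SE 0.15) with an edgeR adjusted p of 0.00194. RPS31 (YLR167W) had 7608 and 7652 RPM with and 3719.8 and 4045 RPM without glucose, a log2 difference of -1.27 (SE 0.13). RPS22B (YLR367W), whose pre-mRNA is known as a target of the RNase III Rnt1, had 271 and 269.7 RPM with and 166 and 175 RPM without, a log2 difference of -0.96 (SE 0.18). These 3 mRNAs were lower without glucose in both courses, by less than most members. RPS22A (YJL190C), the other copy, fell from 3047 and 3664 RPM with to 588 and 738 RPM without glucose, a log2 difference of -2.63 (SE 0.19).

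Members with a single gene had a median log2 change of -1.74 at 30 min and those with copies one of -2.18. The 81 large subunit genes moved by amounts like those of the small subunit, with 81 lower and a median of -1.95 at 30 min, and 68 higher with a median of 0.67 over 30 min with glucose. Of 15 genes for 40S assembly factors, 13 were lower and 1 higher at 30 min, with a median of -1.38. Over 30 min with glucose the median of the assembly genes was 0.12. Among 10 genes that regulate ribosomal protein genes, 5 were lower and 3 higher at 30 min. ASC1, which encodes the RACK1 protein bound to the head of the subunit and is not an RPS gene, had a log2 difference of -1.43.

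Labelled reads set against spike-in reads follow the labelled mRNA of a sample without reference to the rest of the pool. Summed over the 56 members, labelled reads per spike-in read at 45 min were 67.8% and 35.7% of the 0 min library in the courses with glucose, where those of all genes were 39.3% and 22.1%. Without glucose they were 11.5% and 12.5%, where those of all genes were 28.5% and 29.2%. The labelled RPS mRNAs were therefore above all labelled mRNA in both courses with glucose and below it in both courses without. At 45 min the courses with glucose stood further apart from each other than the members did from all genes within a course.

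The slope of labelled reads per spike-in read passed the test below 0 in 55 of 56 members with glucose (99.0% of all genes) and in 56 of 56 without (81.5%). At the median slope labelled reads halved in 49.8 min with glucose, against 17.04 min for all genes, and in 13.7 min without glucose, against 24.1 min for all genes. These halving times hold the loss of labelled mRNA and any label still incorporated after 0 min. The 49.8 min lies beyond the last time point and pools 2 courses that differed. In them the median member had 65.8% and 34.8% of its 0 min value left at 45 min. The difference of slopes, tested as an interaction, passed below 0 in 53 members and was not called in 3, where 8.50% of all genes passed below 0 and 44.3% above it, with a members' median of -0.53 log2 per 10 min and an all-gene median of 0.17. The count with glucose was 16 without the second course and 12 when only 0 to 30 min were used, so it rests on that course and the last time point. The difference between conditions passed below 0 in 79 of 81 large subunit genes and in 3 of 15 assembly genes, and above 0 in 1 other assembly gene. The assembly genes' median slope was -0.73 log2 per 10 min without and -0.65 with glucose.

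RPS28B was again the fastest without glucose. Its labelled reads per spike-in read were 49.6 and 40.1% of 0 min at 5 min, 12.9 and 11.9% at 20 min and 3.98 and 3.48% at 45 min, a slope of -1.01 (SE 0.07) log2 per 10 min. With glucose they were 56.6 and 30.9% of 0 min at 45 min, above both courses without glucose. RPS20 was the slowest, with 56.7 and 38.0% left at 45 min without glucose and a slope of -0.19 (SE 0.07). With glucose RPS20 had 36.2 and 31.3% left, slightly below both courses without glucose, and its difference of slopes of 0.12 (SE 0.10) did not pass the test (edgeR adjusted p = 0.327). The differences of RPS12, -0.10 (SE 0.07) with adjusted p = 0.189, and of RPS22B, 0.01 (SE 0.07) with adjusted p = 0.908, did not pass either. The largest differences of slopes were those of RPS9B with -0.79 (SE 0.07), RPS28B with -0.77 (SE 0.09) and RPS22A with -0.75 (SE 0.08).

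**Figure D2:**
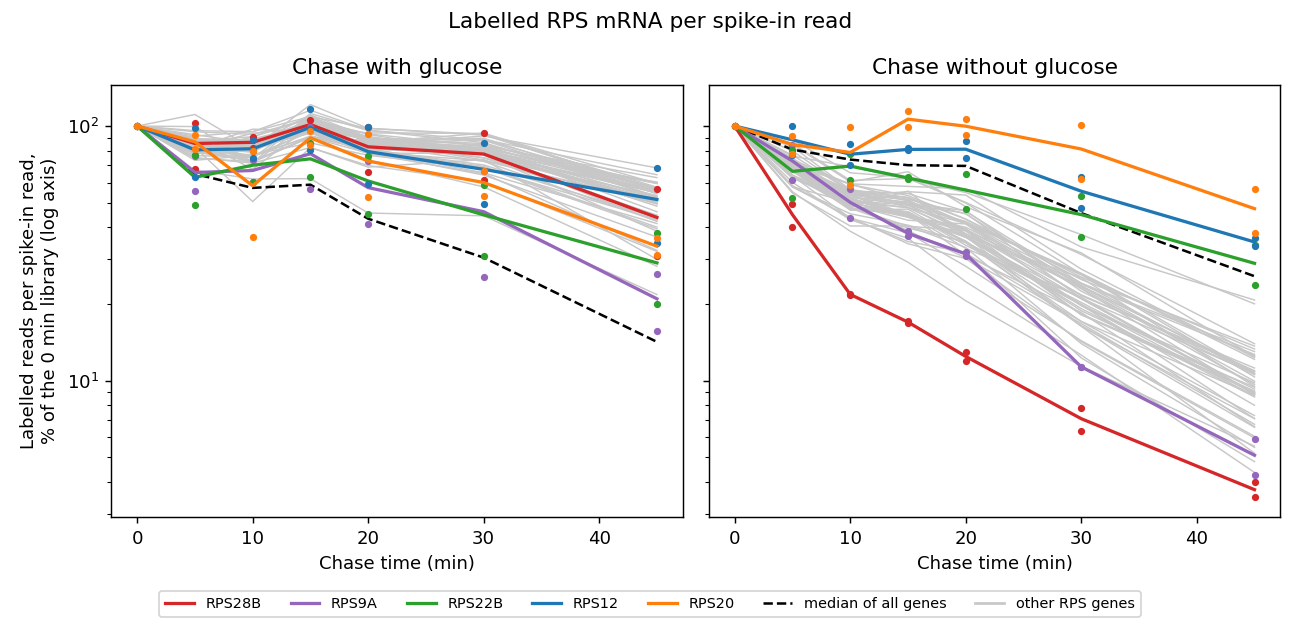
Labelled reads per spike-in read as a percentage of the 0 min library of the same course (log axis), for the 56 RPS mRNAs and, dashed, the median over all genes. Lines are means of 2 courses and points show both courses for 5 named genes. Most grey lines lie above the dashed line with glucose and below it without.

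The labelled share of an mRNA's reads also depends on how much unlabelled mRNA is made. It began at 62.7% and 62.2% in the median member in the courses with glucose and 63.2% in both courses without. It spanned 52.0% for RPS26A to 71.6% for RPS13 as means of the 2 courses with glucose, and over the 56 genes these means had an r of 0.244 and a rho of 0.219 with the number of T positions in the window. With glucose the labelled odds fell in 56 of 56 members, with a median of -0.60 log2 per 10 min, where 99.8% of all genes fell. Without glucose they fell in 53 of 56, with a median of -0.15, where 91.8% of all genes fell. The difference between conditions passed the test in 56 of 56, as in 93.2% of all genes, so these counts do not set the members apart.

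RPS20 was the member whose labelled share moved least without glucose. Its share went from 66.9 and 69.0% at 0 min to 70.3 and 68.8% at 45 min without glucose, and from 67.3 and 68.9% to 34.9 and 38.2% with it. The shares without glucose overlapped between the start and the end. RPS22B had one of the steepest falls with glucose, from 66.6 and 67.6% to 12.8 and 13.7%, a slope of -0.82 (SE 0.03) log2 odds per 10 min, and RPS14A, a protein of the platform, the shallowest, from 52.9 and 53.5% to 25.1 and 24.9%, a slope of -0.40 (SE 0.02).

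Copies of one protein could be compared within a library, where the log2 ratio of A to B reads needs no scale. All 24 pairs had both copies lower without glucose at 30 min of the chase, and in 20 of 24 the A-to-B ratios did not overlap between the libraries with and without glucose. With 2 libraries against 2 the smallest p of an exact permutation test is 0.333, so these ratios are described and not tested. Libraries of 2 like groups separate by chance with that probability. No share over other gene pairs was computed for this or later counts of pairs. The ratio moved by at least 1 log2 unit in 3 pairs. The ratio of RPS28 went from 1.28 and 1.34 with glucose to 3.42 and 3.53 without, that of RPS22 from 3.49 and 3.76 to 1.83 and 2.08, and that of RPS26, which carries the uncertainty given above, from 1.24 and 1.19 to 2.23 and 2.27. In each of these 3 pairs all ratios without glucose lay on one side of those with glucose, and RPS22 was the one whose A copy lost more. The ratio of RPS14 was 4.01 and 3.90 with and 3.98 and 3.89 without glucose, and that of RPS9 was -2.83 and -2.84 with and -2.87 and -2.90 without.

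**Figure D3:**
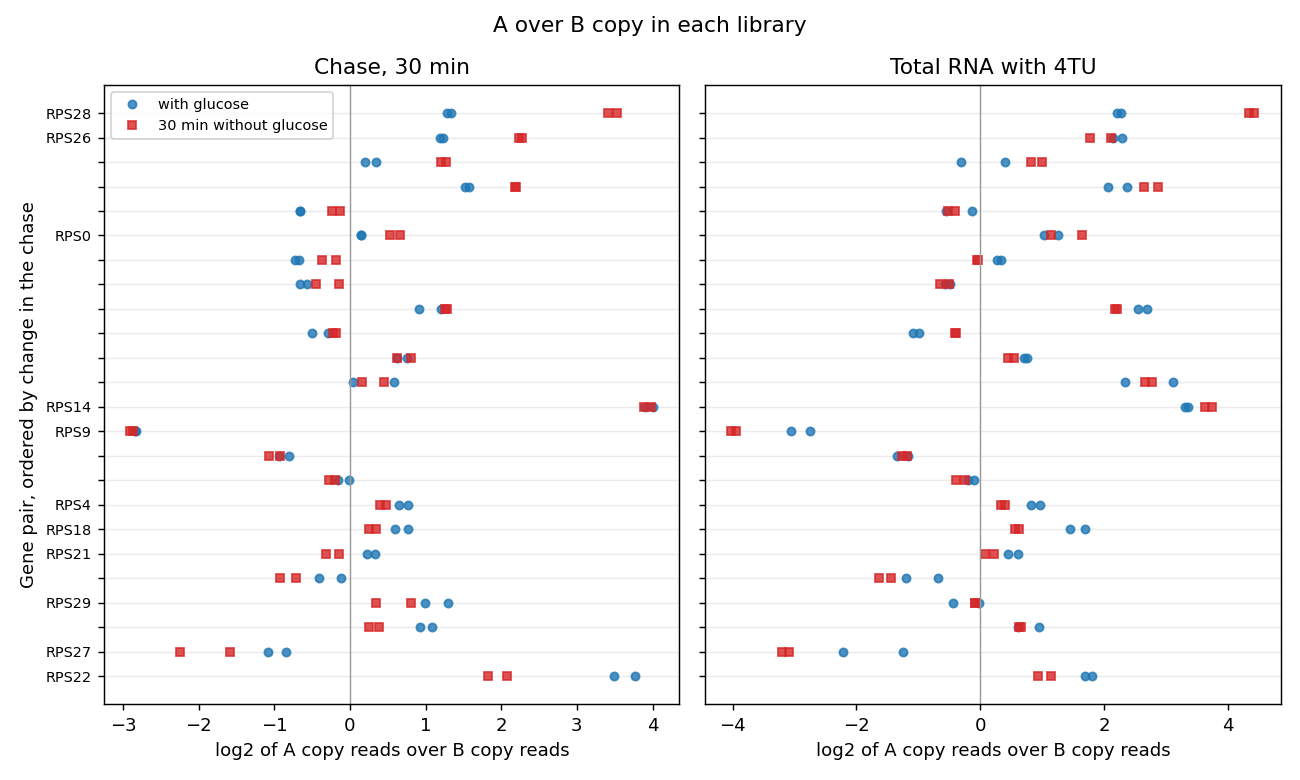
Log2 of A copy over B copy reads for the 24 RPS gene pairs in each library, at 30 min of the chase on the left and in total RNA with 4TU on the right. Circles are libraries with glucose and squares libraries without. RPS28 moves to the right by 2.17 in the chase and by 2.15 in total RNA, while RPS9 moves by -0.05 in the chase and -1.08 in total RNA. Part of the 2.17 was already present at 0 min. The pairs named in the text are labelled.

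In total RNA of the polysome set, the same 30 min without glucose gave another picture. The summed RPS share of reads was 6.63% and 7.13% with glucose and 6.78% and 6.22% without. Of 56 members 8 were higher and 5 lower, where 29.4% of all genes were higher and 29.3% lower, and the members' median was 0.12. On library totals, without TMM factors, 4 were higher and 18 lower and the median was -0.29, and the median of all genes was then -0.45, so that the members stood 0.16 above it on that scale and 0.15 above it with TMM. Without the first library with glucose the median was -0.02. The count of higher members was 5 without the first and 14 without the second library with glucose, and 4 without the first and 5 without the second library without it, which left 3 lower. With glucose the summed RPS share here lay below the 10.5% and 10.8% of the chase at 0 min and the 13.79% of total RNA without 4TU. Strain, labelling and the T counts of most windows differ between this set and the chase. The library kit may differ too, since another is named for polysome enrichment. These differences cannot be told apart.

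Of the 8 members that rose, 5 were single genes. RPS3 (YNL178W), which lines the mRNA entry channel, had 1045 and 765 RPM with and 1845 and 1806 RPM without glucose, a log2 change of 1.45 (SE 0.22) and an edgeR adjusted p of 4.82e-05. RPS12 had 3919.7 and 4105 RPM with and 7563 and 6905 RPM without, a log2 change of 1.27 (SE 0.22) with an adjusted p of 1.20e-04. RPS31 had 2736 and 2504 RPM with and 4624 and 4589.5 RPM without, a log2 change of 1.24 (SE 0.21) with an adjusted p of 1.26e-04. In all 3 the libraries without glucose were higher and did not overlap those with it. The 8 single-gene members had a median of 0.80, and the 48 copies, of which 3 were higher and 5 lower, one of 0.05.

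RPS28B had the lowest log2 change here too, with 587 and 655 RPM with and 104 and 89.5 RPM without glucose. That change was -2.26 (SE 0.22) with an edgeR adjusted p of 2.80e-07, while RPS28A, at 2702 and 3158 RPM with and 2108 and 1921 RPM without, had -0.13 (SE 0.21) with an adjusted p of 0.623. The RPS28 pair was thus split by 2.15 log2 units in total RNA and by 2.17 in the chase, in libraries that are not shared. The 2.17 holds a difference already present at 0 min, and from 0 to 30 min without glucose the change was 1.61. The RPS9 pair had moved by only -0.05 at 30 min of the chase, though without overlap. In total RNA its ratio went from -2.75 and -3.05 with to -4.02 and -3.95 without glucose, with RPS9A at -0.65 (SE 0.19) and RPS9B at 0.44 (SE 0.19). RPS27A, at -0.97 (SE 0.21), and RPS18A, at -0.98 (SE 0.22), were the next lowest members after RPS28B. Their B copies had 0.41 (SE 0.25) for RPS27B and 0.01 (SE 0.18) for RPS18B. The A-to-B ratios of 17 of 24 pairs did not overlap between groups, and 15 of 24 pairs moved the same way as at 30 min of the chase. Neither count was tested against chance.

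In the libraries without 4TU nearly all members were lower without glucose. With 1 library per group and no replicate, the RPS share of reads was 13.79% (95% Wilson interval 13.78 to 13.80, for counting error only) with glucose and 8.10% (8.09 to 8.12) without. By sign alone, 55 of the 56 members were lower without glucose, as were 46.1% of all genes, with a members' median log2 ratio of -0.88 against 0.08 for all genes. RPS28B had 1459 RPM with and 119.6 RPM without glucose, RPS28A 3519 with and 2112 without, and RPS20 232 with and 163 without. RPS28B again fell most among the members. Over the 56 genes, the log2 ratios of these libraries and the changes at 30 min of the chase, which share strain KWY165 and no library, had a Pearson r of 0.810 and a Spearman rho of 0.899. The chase against total RNA of the polysome set had 0.559 and 0.566. Genes are not independent replicates, and these values describe the libraries. In 22 of 24 pairs the A-to-B ratio moved the same way as in the chase.

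On polysomes, the RPS mRNAs lost ground without glucose. Their summed share of reads in polysome libraries went from 8.13% and 6.83% with glucose to 2.15% and 2.25% without, while in total RNA it stayed between 6.22% and 7.13%. With glucose, polysomes against total RNA gave 17 members higher and 5 lower and a median of 0.20, where 15.3% of all genes were higher and 13.6% lower. With library totals this split was 6 higher and 20 lower, a scale on which the median of all genes was -0.53. It was 10 higher when the compared libraries were fitted alone, 7 higher without the first total RNA library, and 11 higher and 0 lower without the second polysome library. The count of lower members was 10 without the first polysome library and 2 without the second total RNA library. Without glucose 44 members were lower and 1 higher, with a median of -1.05, where 24.4% of all genes were lower and 25.7% higher. The difference between these contrasts, tested as an interaction, passed below 0 in 46 of 56 members and was not called in 10, where 8.01% of all genes passed below 0. Its median was -1.39 against 0.01 for all genes, and the count was 29 without the first total RNA library without glucose. The 11 members not called in the contrast without glucose were RPS2, RPS9A, RPS9B, RPS14A, RPS15, RPS21A, RPS22A, RPS22B, RPS27B, RPS29B and RPS31.

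RPS19B, RPS3 and RPS19A had the lowest polysome values without glucose. RPS19 is a protein of the head that is needed to mature the subunit. RPS19B (YNL302C) had 819.8 and 438 RPM on polysomes with glucose and 55.9 and 70.8 RPM without. In total RNA it had 1050.2 and 1078 RPM with and 1045 and 999 RPM without glucose. Its log2 of polysomes over total RNA was -0.28 (SE 0.22) with glucose and -3.28 (SE 0.24) without, with an edgeR adjusted p of 3.74e-07 for the latter. The polysome libraries without glucose held far less RPS19B than any other, while total RNA held about as much with as without glucose. RPS3, which had risen in total RNA, had 702 and 442 RPM on polysomes with glucose and 151 and 121 without, and -2.995 (SE 0.24) for the log2 of polysomes over total RNA without glucose. RPS12 went from 8575 and 6993 RPM on polysomes with glucose to 1890.3 and 2396 without, and its interaction was -2.48 (SE 0.31). For RPS3 and RPS12 the polysome level fell while the total level rose in the polysome set, with no overlap between libraries in either. The other sets did not share that rise of RPS3. In total RNA of the background set, its log2 ratio without over with glucose was -0.58, and that of RPS12 was 0.10. That set has no replicate. At 30 min of the chase RPS3 and RPS12 were both called lower without glucose.

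RPS14B, RPS2 and RPS22B lay at the other end. RPS2, with RPS3, lines the mRNA entry channel, and the Rps14 protein is known to limit the splicing of RPS14B. RPS14B (YJL191W) had 181 and 150.3 RPM in total RNA and 208 and 141 RPM on polysomes without glucose, which overlap. On the TMM scale it was the member called higher, at 0.84 (SE 0.22) with an adjusted p of 0.00559 in edgeR's test. That rests on the scale, being 0.08 with library totals, where the median of all genes was -0.73, and it did not pass without the first polysome or the second total RNA library without glucose. RPS2 had 0.52 (SE 0.21) and RPS22B 0.46 (SE 0.20), which did not pass with edgeR. RPS14A, at 1.81 (SE 0.23), had the highest value with glucose, and RPS20, at -1.13 (SE 0.25), the lowest.

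Copies of some proteins also parted on polysomes. Without glucose the change of the A-to-B ratio from total RNA to polysomes reached at least 1 log2 unit in 7 of 24 pairs and did not overlap in 21. It was -2.73 for RPS29, 1.85 for RPS4, -1.59 for RPS0 and 1.35 for RPS21. With glucose the same pairs were split the same way, by -1.41 for RPS29, 0.999 for RPS4, -0.54 for RPS0 and 0.43 for RPS21, so that part of each split was also seen with glucose. RPS27 was split most with glucose, by -2.02, and by -0.76 without. In the libraries without 4TU, with 1 library per group, RPS29 was split by -1.63 with and -2.16 without glucose and RPS4 by 1.23 with and 1.15 without. There RPS0 was split by -1.25 with and -0.92 without glucose, and RPS21 by 0.58 with and 0.84 without. The difference of splits between conditions was not tested. RPS29A, a zinc-binding protein of the head, had 798 and 766 RPM in total RNA and 69.3 and 67.4 RPM on polysomes without glucose, and RPS29B had 844 and 808 RPM in total RNA and 444 and 516 on polysomes. RPS4A had 1756 and 1409 RPM in total RNA and 431 and 535 on polysomes, and RPS4B 1328 and 1122 in total RNA and 95.7 and 111 on polysomes. The copy that was lower on polysomes, RPS29A or RPS4B, did not overlap the other copy there. Over all 24 pairs, the A and the B copy's polysome values without glucose had an r of 0.456, and their changes at 30 min of the chase one of -0.13. RPS29, RPS4, RPS0 and RPS21 were chosen here as the 4 pairs with the largest change, after their values were seen.

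**Figure D4:**
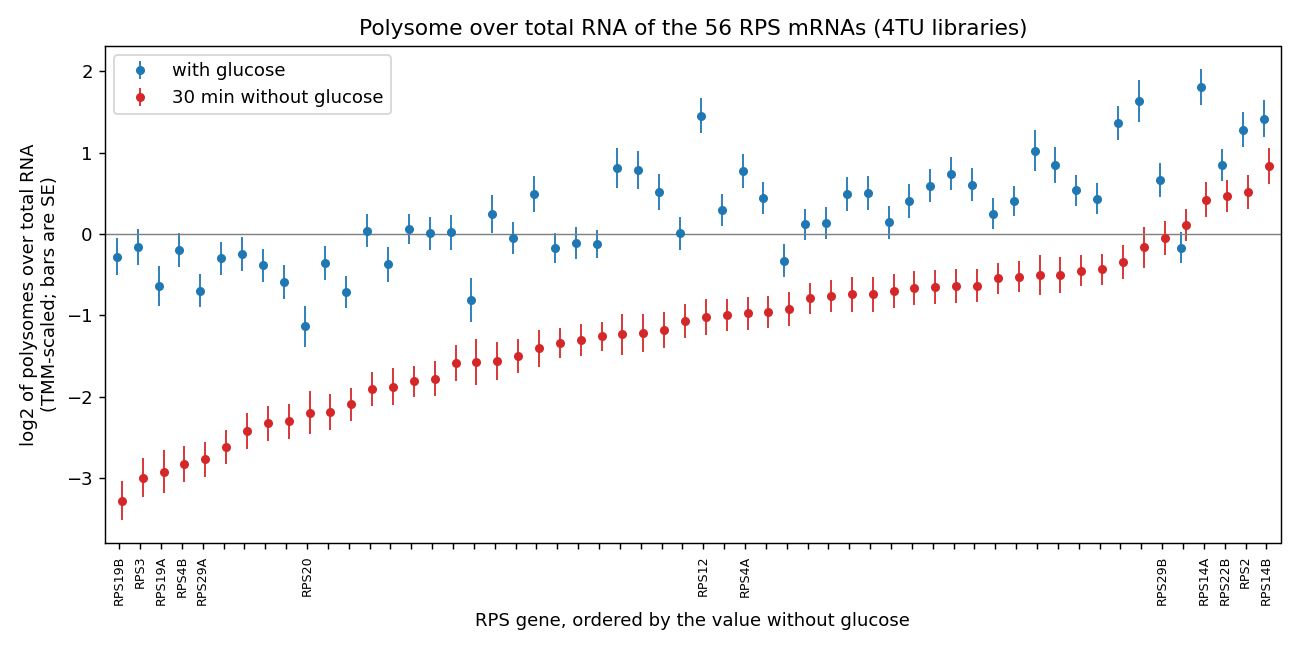
Log2 of polysomes over total RNA for the 56 RPS mRNAs with glucose and at 30 min without it, in order of the value without glucose. Points are edgeR estimates from 2 libraries per group and bars their SE. The points without glucose run from -3.28 for RPS19B to 0.84 for RPS14B. Genes named with their polysome values are labelled.

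In the libraries without 4TU, with 1 library per group, the median log2 ratio of polysomes to total RNA was -0.87 with glucose, against -0.72 for all genes, and -1.80 without, against -0.79. Over the 56 members, the ratios without glucose in these libraries and in the 4TU libraries had an r of 0.820 and a rho of 0.810, and those with glucose 0.822 and 0.809. The change of that ratio between the conditions had a lower r of 0.361 and a rho of 0.303. RPS19B had 962 RPM in total RNA and 109 RPM on polysomes without glucose, and RPS14B 231 in total RNA and 228 on polysomes. The large subunit genes did alike in the 4TU set, with 57 of 81 lower and 7 higher without glucose and a median of -1.36. Of 15 assembly genes 1 was lower and 4 higher, with a median of 0.05 and an interaction median of -0.33, but no test compared them with the members. ASC1 had a log2 of 2.09 with and 1.03 without glucose.

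The labelled share of RPS reads in total RNA was 35.5% and 33.8% in the median member with glucose, below the medians of 53.6% and 59.9% over all genes. It was 1.10% and 0.986% without glucose, against 1.38% and 1.28% over all genes and 0.0170% with and 0.0270% without glucose in the median member of the total RNA libraries without 4TU. At 30 min of the chase without glucose, in another strain, the median member still had 57.0% in both courses. The lower share here is therefore not to be read as loss of label. The order of labelling and withdrawal was not tested. The labelled odds were lower in 56 of 56 members, as in 99.6% of all genes, with a members' median of -5.73. With glucose RPS20, RPS27A and RPS19A had the highest shares in total RNA, and RPS26A the lowest, at 19.5 and 16.9%. Without glucose RPS8A (YBL072C), a protein of the body of the subunit, had the highest share in total RNA at 6.28 and 6.71%, which no other member reached. It had 7.23 and 7.83% on polysomes, and 0.0730% in total RNA and 0.0637% on polysomes without 4TU. RPS20 had 6.02 and 3.85% in total RNA and 15.7 and 6.02% on polysomes without glucose, and 0.436% and 0.739% without 4TU, the highest background of the members. Its shares on polysomes without glucose with 4TU rest on only 230 and 482 reads. The background of RPS20 is below its share with 4TU in all 4 libraries. The deposited counts gave at most 0.614 conversions per labelled read in the polysome set with 4TU, against at least 1.32 in the chase. All labelled shares and odds of the polysome set are uncertain for that reason.

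Polysomes held a lower labelled share than total RNA with glucose, 22.2% and 17.3% in the median member, and the odds were lower in 54 of 56, where 34.4% of all genes were lower. The members' median of -1.13 lay near that of all genes, -1.02, with a median SE of 0.25 against 0.53, so the counts do not set the members apart. The members' count was 32 without the second polysome library with glucose. RPS12 had the lowest share on polysomes, 11.3 and 9.06% against 31.0 and 29.2% in total RNA, a log2 odds difference of -1.93 (SE 0.23). Without glucose the median member had 1.32% and 1.35% on polysomes, and 3 members were higher and 53 not called, where 0.725% of all genes were higher. The count was 10 higher and 1 lower without the second polysome library, and 1 higher without the second total RNA library. RPS19A (YOL121C) had 1.498 and 1.33% labelled reads in total RNA and 6.25 and 4.51% on polysomes, a log2 odds difference of 1.97 (SE 0.37) with an edgeR adjusted p of 0.00110. Its polysome shares rest on only 448 and 577 reads. RPS3 had 1.05 and 0.877% labelled reads in total RNA and 1.99 and 2.68% on polysomes, a log2 odds difference of 1.29 (SE 0.28) with an edgeR adjusted p of 0.00637. RPS10A (YOR293W) had 0.803 and 0.671% labelled reads in total RNA and 1.81 and 1.42% on polysomes, a log2 odds difference of 1.14 (SE 0.30) with an edgeR adjusted p of 0.0423. Both polysome libraries lay above both total RNA libraries for all 3, and RPS19A and RPS3 also had 2 of the 3 lowest values of polysomes over total RNA without glucose. The difference between the contrasts, tested as an interaction, passed above 0 in 47 of 56 members, where 17.5% of all genes passed, with a median of 1.53 against 1.11 for all genes. That count was 31 without the second polysome library with glucose, 30 without the first and 29 without the second total RNA library with glucose.

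**Figure D5:**
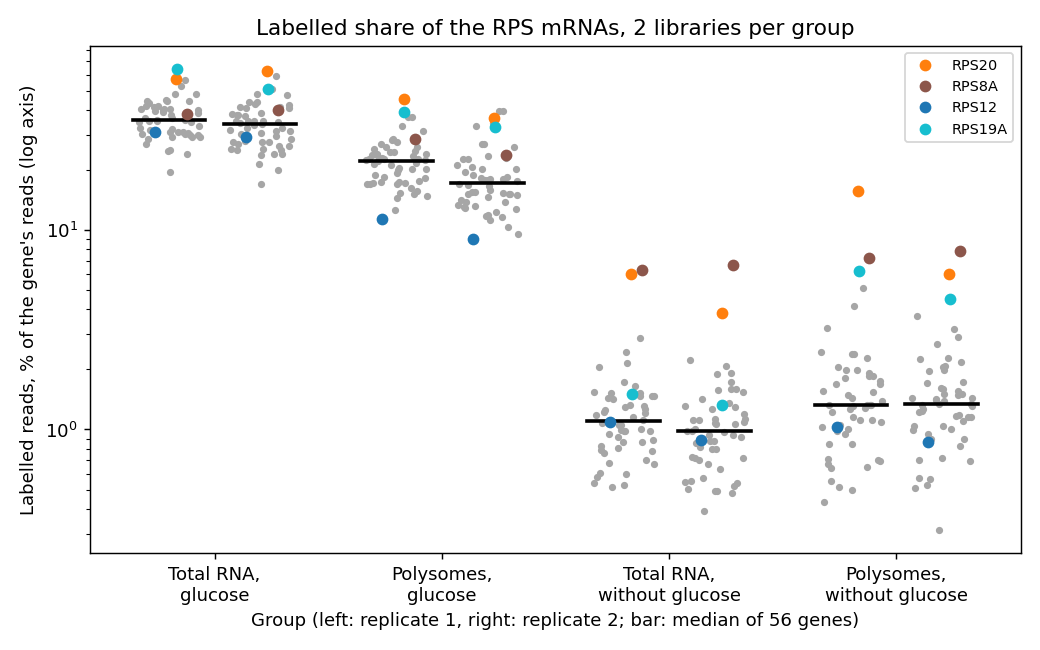
Labelled reads as a percentage of each RPS gene's reads (log axis) in the 8 libraries with 4TU. Points are the 56 genes, bars the median, with 4 genes in colour. With glucose the members lie between 9.06% and 64.1%, and without it RPS20 and RPS8A are the highest in total RNA.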

How the data were processed

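Each library has 1 deposited table, which per the file headers is slamdunk output (version 0.4.3). Per the labels' protocols RNA was alkylated with iodoacetamide, and a 3' end kit is named for SLAM-seq and a directional kit for polysome enrichment. The submitters' processing notes also list cutadapt, Bowtie, TopHat2 and featureCounts, with no version or role. Genome build, aligner settings and the rule that calls a read labelled were not given in the sources used here. The deposited counts of reads, labelled reads and conversions are whole numbers per window, per the file headers. The deposited conversion fraction and the deposited CPM, per the file headers, were not tested. A RefSeq gene table (assembly R64) matched 5558 of 5560 names.

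Counts were tested with edgeR 4.0.16 in R 4.3.3 (TMM, expression filter, robust quasi-likelihood test, Benjamini-Hochberg adjustment over all genes tested, threshold 0.05), with the 28 chase libraries in 1 fit and the 8 libraries with 4TU in another. Labelling was tested as log2 odds (labelled over unlabelled reads) with an intercept per library, and labelled reads per spike-in read with spike-in reads as library size, for genes with a mean of at least 50 reads and 10 labelled reads in sum. Slopes run over 0 to 45 min, per 10 min, and take the libraries of a course as independent. Each condition had only 2 courses, so the slope tests may understate the spread between courses. An alternative took the course as the unit, with 1 slope per course tested in limma 3.58.1. Its counts for labelled reads per spike-in read are not given here. Depth per library is given with the report. The variance between replicates was on average 4.58 to 147 times the counting variance over all genes, depending on the group. For the members it was 16.7 to 941 times, highest for polysomes with glucose and 4TU, so counting error is the smaller part. Intervals on single shares are Wilson intervals. Each kind of fit, though not each comparison, was run on simulated data with known changes. The simulated libraries were independent and held no course effect, so they cannot show how the tests behave when courses differ.

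Named genes were, for each comparison, the 3 members with the highest and lowest log2 change and a mean of at least 100 reads, both copies of the 4 pairs that split most at 30 min of the chase and in total RNA, the 3 highest and lowest levels and labelled shares in glucose, and RPS28A, RPS28B, RPS22A, RPS22B, RPS14A, RPS14B, RPS9A, RPS9B and RPS31. Members not called and the pairs that split on polysomes were named outside it, and some genes the rule chose are not reported here. The members and lists were chosen with earlier results of these data known. Alternatives were DESeq2 1.42.0, its size factors, library totals, spike-in reads as scale, TMM without ribosomal protein genes, no filter, other read minimums, subtraction of multimapped reads, the compared libraries alone, shorter chases, 1 slope per course, a replicate block and the omission of each library. The comparison at 0 min and the interaction of labelled odds were added after the data were seen. Python 3.11.15 was used for tables and plots, with pandas 2.3.3, NumPy 2.4.6, SciPy 1.17.1 and matplotlib 3.10.9.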

Additional observations from a re-analysis of the deposited data

Results flagged for a closer look

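For 4 results the effect of the same contrast differed between conditions by a test of the difference itself. The change of polysome association without against with glucose passed the test below 0 in 46 of 56 members and in 8.01% of all genes. The slope of the labelled odds passed as higher without than with glucose in 56 of 56 members and in 93.2% of all genes. The slope of labelled reads per spike-in read passed as lower without than with glucose in 53 of 56 members and in 8.50% of all genes, while 44.3% of all genes passed as higher. RPS12, RPS20 and RPS22B were not called. The labelled odds on polysomes against total RNA passed as higher without than with glucose in 47 of 56 members and in 17.5% of all genes, with a median of 1.53 against 1.11, and in 29 to 45 members when 1 library was left out. With 1 or 2 libraries per group no group could be tested for a sample that stands apart.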

How the results depend on the processing

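Most counts kept their direction, and those of the fall of the labelled odds with glucose, its difference between conditions and the lower labelled odds in total RNA without glucose were called in 56 members under every alternative run. With spike-in reads as scale 0 members rose over 30 min with glucose, 1 was lower at 5 min, and the median at 0 min was -0.0147. With library totals, 1 member was lower at 0 min, 1 higher at 15, 30 and 45 min each (RPS20), 4 higher and 18 lower in total RNA with a median of -0.29, 6 higher and 20 lower on polysomes with glucose with a median of -0.30, and 0 higher without glucose. The compared libraries alone gave 1 lower at 0 min, 1 higher at 15 min, 10 higher on polysomes with glucose and 3 without. DESeq2 gave 1 lower at 0 min and 4 higher on polysomes without glucose, and its size factors 3. From 0 to 30 min 12 members fell per spike-in read with glucose. The cause was not tested.

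Leaving out 1 library gave 16 to 39 members higher over 30 min with glucose, 9 to 12 lower at 5 min, 0 to 1 higher at 30 min, 4 to 14 higher and 3 to 6 lower in total RNA with medians down to -0.0187 without the first and up to 0.31 without the second library with glucose, 7 to 21 higher and 0 to 10 lower on polysomes with glucose, 0 to 1 higher without glucose, and 29 to 49 lower for their difference. It gave 32 to 49 lower labelled odds on polysomes with glucose, 1 to 10 higher and 0 to 1 lower without, and 29 to 45 higher for their difference. Leaving out 1 course or library gave 16 to 56 members falling per spike-in read with glucose, where the slope of RPS23B was -0.23 without the first and 0.0048 without the second course.

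Replicate numbers were not taken to pair the samples, since the correlations of deviations between same-numbered libraries ran from -0.34 to 0.28 in the chase with against without glucose. They were 0.18 to 0.29 for 0 min against 5 to 20 min without glucose, and 0.31 for total RNA against polysomes with glucose. With the replicate number as a block 5 members had higher labelled odds on polysomes without glucose, and no other count moved over 1.5 times. Conversions per covered T were not run for the polysome set, since the number of T positions was equal in both sets for 1.71% of windows only. Conversions per labelled read were 1.32 to 1.75 in the chase libraries. They were 0.335 to 0.614 in the polysome set with 4TU and 0.761 to 0.924 in the libraries without 4TU. Values under 1 mean that the counts of conversions and of labelled reads do not match there. The reason was not tested. Depth limits the labelled shares without glucose, where a median member is near 1% labelled, and the 4 libraries without 4TU have no replicate.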
